A study of Mus musculus with 8 samples.

Results

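The 68 genes described here belong to the SR, LUC7-like, RBM and hnRNP families or encode splicing coactivators that carry arginine-serine stretches. All are called splicing factors here, although the RBM genes also include exosome adaptors. They were taken by name from the 35583 genes of the deposited count table, and a summed count of at least 100 over the 8 libraries was required. Names matched for 76 genes, and the 8 that fell short of that count (Rbm11, Rbm20, Rbm24, Rbm44, Rbm46, Srrm3, Srrm4 and Srsf12) held between 0 and 35 counts. The members are 10 Srsf genes, 5 coactivators (Srrm1, Srrm2, Son, Pnn and Acin1), 3 LUC7-like genes, 30 Rbm genes and 20 Hnrnp genes. The cells were hypothalamic microglia, the resident macrophages of the brain, from young wild-type mice. All mice had received dye-labelled plasma protein 20 hours earlier, and 4 libraries each were made from cells carrying the plasma label and from cells without it, here called plasma-positive and plasma-negative. Whether equally numbered libraries share an animal, and how many animals were pooled, is not stated in the labels, so p-values measure the spread between these libraries, which may be technical. The Smart-seq2 libraries, which cover whole transcripts from little RNA, held between 2963094 counts (plasma-negative replicate 4) and 21422738 counts.

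Introns are removed from pre-mRNA by the spliceosome, whose U1 and U2 particles find the splice sites. SR proteins bind exonic enhancers through RNA recognition motifs and recruit the spliceosome through a domain rich in arginine-serine repeats. The hnRNP proteins coat nascent transcripts and often act against SR proteins at the same exon. The LUC7-like proteins belong to the U1 particle and influence the choice of 5′ splice sites, and Srrm2 and Son build the nuclear speckles in which splicing factors gather. The RBM genes are grouped here by the name "RNA binding motif" and include U1 and U2 partners, exosome adaptors and regulators of single exons.

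All 11 microglial markers were tested, and their summed level was 62476 to 73126 CPM (counts scaled to library size with edgeR's TMM factors) in plasma-negative and 68807 to 73830 CPM in plasma-positive libraries, with Csf1r called higher by edgeR. Neuron markers (9 genes) summed to at most 34.4 CPM in plasma-negative libraries and reached 306 CPM in plasma-positive replicate 2, which was also highest for the 7 oligodendrocyte markers (533 CPM, against 158 to 303 CPM elsewhere). The 6 monocyte and neutrophil markers (Ly6g at 0) reached 474 CPM in plasma-positive replicate 3 and at most 13.8 CPM elsewhere. Astrocyte markers (7 genes) lay at 208 to 327 CPM, endothelial markers (7 genes, Tek and Slco1c1 at 0) at 16.2 to 58.3 CPM and border macrophage markers (6 genes, Cd163, Lyve1 and F13a1 at 0) at no more than 15.8 CPM. The gene counts made up 68.9 to 74.6% of the library total behind the deposited RPKM values (reads scaled to exon length and library total) in plasma-negative and 81.4 to 84.2% in plasma-positive libraries (exact permutation test, two-sided p = 0.0286, the smallest that 4 against 4 allow). The part of these differences in the results was not tested. Of the 7 members called below, Luc7l2 and Rbm25 were called without plasma-positive replicate 2 and also without replicate 3, and Son, Srrm2, Rbm26, Rbm5 and Hnrnpr were called in neither fit, with log2 changes between -1.09 and -0.61. Most of these 5 calls were also lost without other single libraries.

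In plasma-positive microglia 7 of the 68 splicing factor mRNAs were lower and none was higher at an adjusted p under 0.05 (edgeR's quasi-likelihood test, Benjamini-Hochberg adjustment over 13277 genes). That is 10.3% of the members, where 1.41% of all tested genes were called, 0.565% lower and 0.844% higher. Of the 5040 tested coding genes above 32 CPM, 51 (1.01%) were called lower and 96 higher. Fewer members were called lower in other fits: 2 to 5 with 1 library left out, 3 with the replicate number as a block, 1 with a correction for exon length and GC content, and 1 and 0 with limma on log2(RPKM + 1) and log2(RPKM + 0.1). The 7 were Luc7l2, Rbm25, Rbm26, Rbm5, Son, Srrm2 and Hnrnpr. At an unadjusted p under 0.05, 15 members were lower and 4 higher, against 6.67% and 7.13% of all tested genes. DESeq2 called 9 members lower (the 7, Rbm39 and Acin1) and 2 higher (Hnrnpc and Hnrnpll), where it called 5.45% of all genes, 2.84% lower and 2.61% higher. In 12 members all 4 plasma-positive libraries lay below all 4 plasma-negative ones, and in 3 (Hnrnpc, Hnrnpll and Rbm17) they lay above. Among all tested genes 4.59% lay wholly below and 5.68% wholly above, and among coding genes above 32 CPM 5.81% and 9.84%. The median log2 change of the members was 0.06, against 0.01 over all tested genes, with 36 members above 0 and 32 below.

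By family the members lay differently, a difference that was not tested. All 5 coactivators and all 3 LUC7-like genes had log2 changes below 0, with medians of -0.69 and -0.51, although Srrm1 and Luc7l lay slightly above 0 with RPKM values and with the correction for length and GC content given further on. The Rbm genes were split, 14 above and 16 below 0, with a median of -0.05 and a range from -1.16 to 0.83. Of the Srsf genes 7 of 10 lay above 0 (median 0.15), and of the Hnrnp genes 15 of 20 (median 0.16). Summed over the LUC7-like genes, the level was 338, 319, 352 and 297 CPM in plasma-negative replicates 1 to 4 and 128, 216, 173 and 174 in plasma-positive ones. The coactivators summed to 1226, 1353, 1576 and 1149 CPM and to 776, 847, 944 and 931 CPM. In both families the groups did not overlap. Summed Srsf levels overlapped, at 1230 ± 22.1 and 1277 ± 146 CPM (SD, n = 4), as did Hnrnp levels, at 1756 ± 134 and 1915 ± 78.8 CPM. Summed Rbm levels did not overlap, at 2228 ± 79.1 and 1750 ± 121 CPM (SD, n = 4), nor did the sum over all 68 members, at 6867 ± 185 and 5989 ± 207 CPM. Without the 7 called members the groups overlapped in every one of these sums, at 4999 ± 154 and 4934 ± 236 CPM over the other 61 members, 1705 ± 139.5 and 1478 ± 116 CPM over 27 Rbm genes, 129 ± 33.4 and 99.7 ± 24.8 CPM over Luc7l and Luc7l3 and 319.9 ± 46.7 and 250.1 ± 34.4 CPM over 3 coactivators (SD, n = 4). These sums are descriptions and were not tested. In bulk libraries, less RNA per cell and fewer cells with the RNA cannot be told apart.

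**Figure D1:**
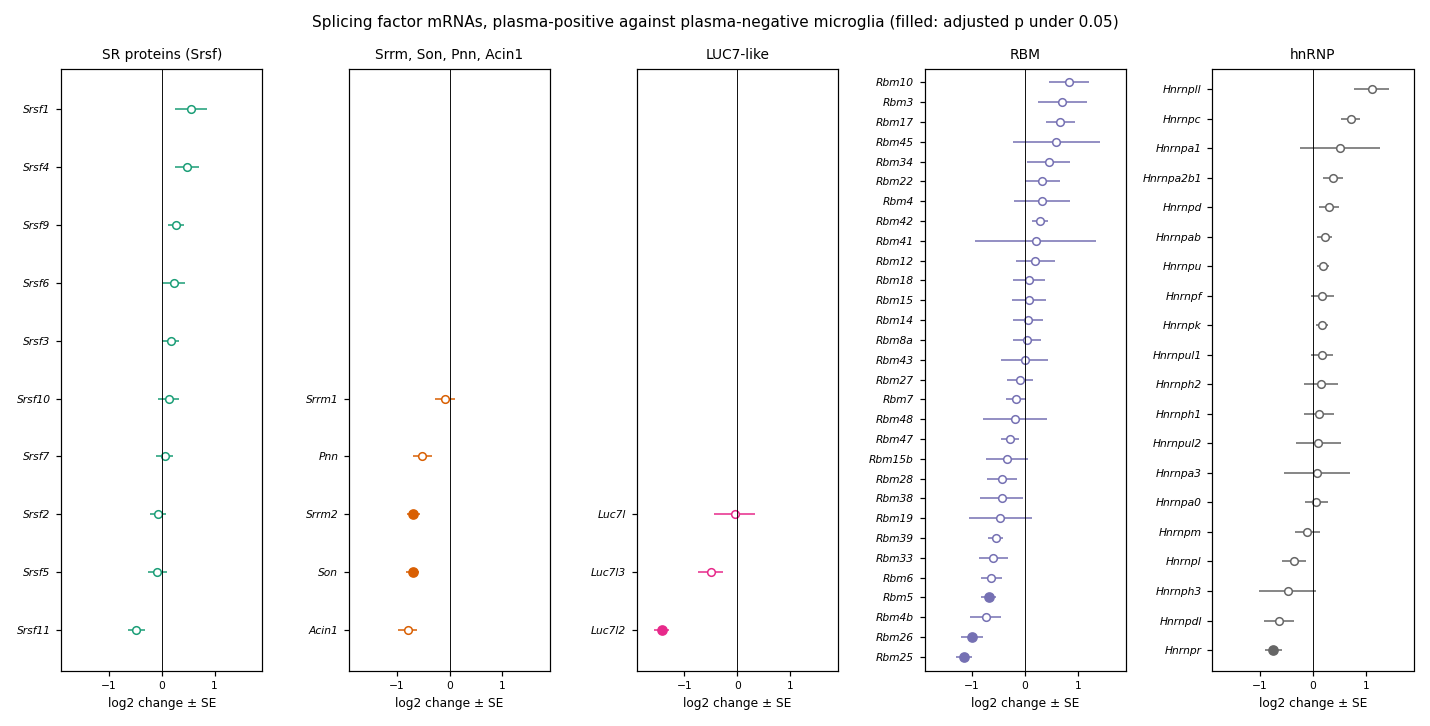
Log2 change of each of the 68 splicing factor mRNAs (plasma-positive over plasma-negative, x axis, bars are ± 1 SE of the edgeR fit), sorted within 5 families. Filled points are the 7 members at an adjusted p under 0.05, all left of 0, and no Srsf gene is among them.

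Luc7l2, a U1-associated factor, was the most reduced member. Its level was 179, 205, 197 and 208 CPM in plasma-negative replicates 1 to 4 and 57.5, 84.5, 74.1 and 76.2 CPM in plasma-positive ones. All 4 plasma-positive values lay far below the plasma-negative ones, and the ratio of the means was 2.70. The log2 change was -1.43 ± 0.15 (SE; edgeR, adjusted p = 0.00162), and it was called in all 8 fits lacking 1 library, with values from -1.51 to -1.33. Luc7l2 lies on chromosome 6 (38551334 to 38609470, plus strand, mm10). Of its exon length 18.9% overlaps the exons of Gm26699, and since the counting's use of strand is not stated, reads of the 2 genes may not be separated. The other 2 members of the family were not called. Luc7l3 stood at 113, 96.2, 121 and 58.9 CPM and at 55.6, 82.5, 66.7 and 70.7 CPM, with overlapping groups, a log2 change of -0.51 ± 0.23 (SE; edgeR, adjusted p = 0.348). Luc7l stood at 31.9 ± 11.7 and 30.9 ± 14.0 CPM (SD, n = 4), with a log2 change of -0.05 ± 0.39 (SE; edgeR, adjusted p = 0.976), a sign that turned with other settings. The differences between the 3 paralogues were not tested.

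What the 3 proteins share is a tail rich in arginine next to serine, which gives the SR-related proteins their name. The stretches below show where it is densest. They are the 40 consecutive codons with the most such neighbours in each gene's longest coding sequence (GENCODE M21, bases counted from the A of the start codon), written 5′ to 3′, with capitals for an arginine codon directly beside a serine codon. The first 3 set the paralogues side by side, and the last 2 come from the coactivators that were called.
Luc7l2, bases 874 to 993: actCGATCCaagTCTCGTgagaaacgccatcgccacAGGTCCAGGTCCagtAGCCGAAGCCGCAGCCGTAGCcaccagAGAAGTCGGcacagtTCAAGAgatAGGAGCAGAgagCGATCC
Luc7l, bases 805 to 924: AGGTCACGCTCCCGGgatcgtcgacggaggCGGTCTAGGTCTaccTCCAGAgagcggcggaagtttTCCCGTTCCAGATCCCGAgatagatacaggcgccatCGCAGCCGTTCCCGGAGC
Luc7l3, bases 925 to 1044: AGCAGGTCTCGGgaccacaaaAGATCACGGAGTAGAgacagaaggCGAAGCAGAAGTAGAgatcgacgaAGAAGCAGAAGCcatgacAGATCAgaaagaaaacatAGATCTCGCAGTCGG
Srrm2, bases 1891 to 2010: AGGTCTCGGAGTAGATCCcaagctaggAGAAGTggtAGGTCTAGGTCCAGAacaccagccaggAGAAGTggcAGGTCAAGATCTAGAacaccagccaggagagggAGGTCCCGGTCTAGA
Son, bases 5599 to 5718: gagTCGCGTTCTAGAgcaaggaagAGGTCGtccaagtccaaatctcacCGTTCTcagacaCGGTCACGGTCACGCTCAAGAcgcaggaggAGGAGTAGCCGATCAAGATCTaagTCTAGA
The 5 stretches hold 17, 18, 19, 19 and 17 such neighbouring pairs. Counted over its whole coding sequence, Luc7l2 had 9.44 pairs per 100 codons, against 7.28 in Luc7l and 7.74 in Luc7l3, which were not called. Over whole coding sequences the median was 17.1 pairs per 100 codons in the Srsf genes, 7.74 in the LUC7-like genes, 3.86 in the coactivators, 1.17 in the Rbm genes and 0.994 in the Hnrnp genes, against 0.775 over 10951 tested genes with a complete coding sequence. Across the 68 members, the density had a Pearson correlation of 0.03 and a Spearman correlation of -0.09 with the log2 change, given as a description because all genes share the same libraries. The density of arginine next to glutamate or aspartate had correlations of -0.40 and -0.22. Within the 14 members with exons of 8000 bases or more, 6 of them called, these were -0.37 and -0.43 for the first density and -0.60 and -0.70 for the second. Across 4997 coding genes above 32 CPM they were only -0.10 and -0.11 for the first and -0.11 and -0.09 for the second.

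Son and Srrm2, the scaffold proteins of nuclear speckles, were both lower. Son (chromosome 16, 91647506 to 91679221, plus strand) stood at 486, 464, 574 and 433 CPM in plasma-negative and 251, 315, 308 and 336 CPM in plasma-positive libraries, a log2 change of -0.69 ± 0.12 (SE; edgeR, adjusted p = 0.0171). Srrm2 (chromosome 17, 23790532 to 23824741, plus strand) stood at 463, 552, 623 and 428 CPM and at 289, 306, 335 and 356 CPM, with a log2 change of -0.69 ± 0.13 (SE; edgeR, adjusted p = 0.0246). Neither gene's groups overlapped, and the lowest plasma-negative value of both was that of replicate 4, the smallest library. With 1 library left out, Son was called in 3 of 8 fits and Srrm2 in 2 of 8, and with the replicate number as a block, where 0.557% of all genes were called, their adjusted p in edgeR were 0.0568 and 0.0628. With the length and GC correction their changes were -0.31 and -0.38 (edgeR, adjusted p = 0.282 and 0.205). Acin1, a member of the ASAP complex that joins splicing to the exon junction, missed the threshold. It stood at 75.8, 100, 123 and 98.3 CPM and at 54.0, 62.2, 53.4 and 60.0 CPM, a log2 change of -0.79 ± 0.18 (SE; edgeR, adjusted p = 0.0571). DESeq2 called Acin1 lower (DESeq2, adjusted p = 0.00221). Pnn, a speckle protein that binds SR proteins, had a log2 change of -0.51 with groups that did not overlap (edgeR, adjusted p = 0.214). Srrm1, the partner of Srrm2, stood at 156 ± 27.9 and 147 ± 36.6 CPM (SD, n = 4; edgeR, adjusted p = 0.908).

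Among the Rbm genes, Rbm25 showed the clearest difference. This U1-associated protein, which acts on alternative 5′ splice sites, stood at 181, 182, 258 and 189 CPM in plasma-negative replicates 1 to 4 and at 85.4, 100, 88.4 and 88.9 CPM in plasma-positive ones. The lowest plasma-negative library exceeded the highest plasma-positive one by 80.3 CPM. The log2 change was -1.16 ± 0.15 (SE; edgeR, adjusted p = 0.00484), and it was called in all 8 fits without 1 library. It was not called with the correction for length and GC content (log2 change -0.65; edgeR, adjusted p = 0.0782) or with limma on log2(RPKM + 1) (limma, adjusted p = 0.114). Replicate 3 was the highest plasma-negative library, and without it the change was -1.02. Rbm25 lies on chromosome 12 (83631236 to 83683123, plus strand). Its protein carries a long run of arginine next to glutamate or aspartate, at 14.8 such pairs per 100 codons against a median of 1.23 in tested coding genes and 2.03 in the members. Its densest 40 codons are shown with those pairs in capitals, to set beside the arginine-serine stretches of the LUC7-like genes and the coactivators.
Rbm25, bases 1144 to 1263: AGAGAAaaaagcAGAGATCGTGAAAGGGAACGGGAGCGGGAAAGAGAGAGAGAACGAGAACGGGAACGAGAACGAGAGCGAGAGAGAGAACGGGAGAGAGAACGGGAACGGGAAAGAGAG
Of the 40 codons, 38 belong to such a pair.

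Rbm26, a zinc finger protein that links RNA to nuclear decay, stood at 136, 123, 157 and 146 CPM and at 53.2, 52.0, 82.8 and 92.7 CPM (log2 change -0.998, SE 0.21; edgeR, adjusted p = 0.0376). Plasma-positive replicates 1 and 2 were the lowest, and the groups did not overlap. Its close relative Rbm27 had a log2 change of -0.09 (edgeR, adjusted p = 0.922). Rbm5, a spliceosome component that acts on exons of cell death genes, stood at 180, 175, 208 and 157 CPM and at 111, 133, 94.2 and 109 CPM (log2 change -0.69, SE 0.15; edgeR, adjusted p = 0.0427). Its neighbour and relative Rbm6 had a log2 change of -0.64 and groups that did not overlap (edgeR, adjusted p = 0.164), while the X-linked relative Rbm10 had one of 0.83 (SE 0.38) and overlapping groups (edgeR, adjusted p = 0.354). Rbm26 and Rbm5 were each called in 1 of the 8 fits without 1 library, Rbm26 without plasma-positive replicate 4 and Rbm5 without plasma-negative replicate 4. With the replicate block Rbm26 was called (edgeR, adjusted p = 0.0494) and Rbm5 was not (edgeR, adjusted p = 0.121).

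In the edgeR fit of all genes and libraries with TMM factors, the other Rbm genes were not called. Rbm39, a partner of U2AF, had a mean of 49.5 RPKM over the 8 libraries. It stood at 537, 563, 489 and 575 CPM and at 278, 335, 458 and 397 CPM, with groups that did not overlap and a log2 change of -0.56 (SE 0.14; edgeR, adjusted p = 0.0764). DESeq2, which called 2.84% of all genes lower, called Rbm39 lower (DESeq2, adjusted p = 0.00143). Rbm42, with a mean of 56.1 RPKM, had a log2 change of 0.28 (edgeR, adjusted p = 0.427), and 75.4% of its exon length overlaps other genes. Rbm39 was the highest of the family in plasma-negative libraries (56.9 RPKM, against 48.1 RPKM for Rbm42) and Rbm42 in plasma-positive ones (64.0 RPKM, against 42.1 RPKM for Rbm39). Rbm7, a subunit of a nuclear exosome targeting complex, stood at 155 ± 45.3 and 137 ± 4.26 CPM (SD, n = 4; edgeR, adjusted p = 0.755). Rbm3, known as a cold-inducible RNA-binding protein, stood at 9.18 ± 4.80 and 15.0 ± 2.95 CPM (SD, n = 4; edgeR, adjusted p = 0.547). Rbm17, a U2-associated factor, was low in plasma-negative libraries at 27.2, 17.9, 29.2 and 19.2 CPM and stood at 34.4, 46.3, 33.1 and 34.6 CPM in plasma-positive ones, with a log2 change of 0.66 that missed the threshold (edgeR, adjusted p = 0.301). Rbm6, Rbm17, Rbm27, Hnrnpa1 and Hnrnpa3 were chosen after their values were seen.

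**Figure D2:**
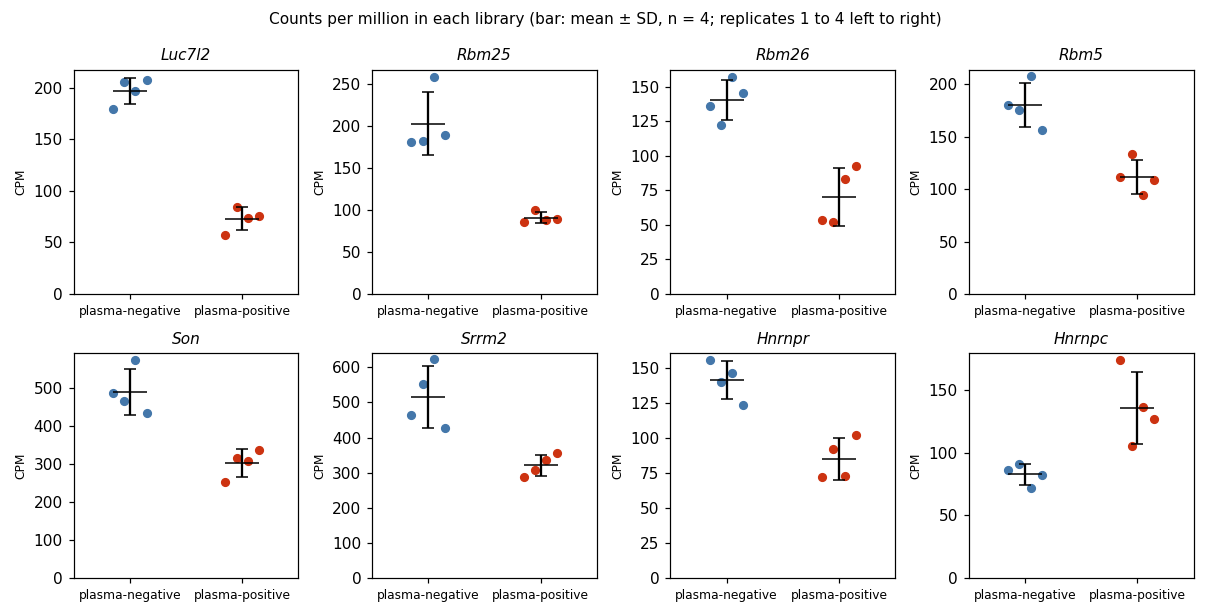
CPM in each library (y axis) for the 7 called members and for Hnrnpc, by group (x axis). Points are replicates 1 to 4 from left to right and bars are the mean ± SD (n = 4); in the 7 called genes every plasma-positive point lies below every plasma-negative one, and in Hnrnpc it is the reverse.

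The hnRNP genes, whose products package nascent RNA, mostly lay slightly above 0. Averaged over all 8 libraries, Hnrnpab, Hnrnpk and Hnrnpu had the highest levels at 60.4, 38.7 and 20.6 RPKM, although in plasma-positive libraries Hnrnpc (25.1 RPKM) lay above Hnrnpu (22.8 RPKM), and none of the 3 was called (log2 changes 0.22, 0.17 and 0.19; edgeR, adjusted p = 0.552, 0.533 and 0.534). Hnrnpc, which binds uridine tracts and keeps cryptic exons out of mRNA, stood at 86.2, 90.9, 71.5 and 82.4 CPM in plasma-negative and 174, 105, 137 and 127 CPM in plasma-positive libraries. Its groups did not overlap, and the log2 change of 0.71 (SE 0.17) missed the threshold (edgeR, adjusted p = 0.0688). Hnrnpll, a regulator of exon skipping in lymphocytes, stood at 16.3, 10.6, 14.5 and 21.5 CPM and at 49.8, 30.3, 26.5 and 28.2 CPM. Its log2 change of 1.11 (SE 0.33) was the highest of all 68 members and was not called (edgeR, adjusted p = 0.141). Without plasma-positive replicate 1, its highest library, the change was 0.86. DESeq2, which called 2.61% of all genes higher, called Hnrnpc and Hnrnpll higher (DESeq2, adjusted p = 0.00899 and 0.0449). Hnrnpr, an RNA-binding protein related to Syncrip, was the only gene of the family called by edgeR. It stood at 156, 140, 147 and 124 CPM and at 71.8, 92.1, 72.6 and 102 CPM (log2 change -0.74, SE 0.16; edgeR, adjusted p = 0.0456), and was called in none of the 8 fits without 1 library, whose changes ran from -0.85 to -0.67. With the correction for length and GC content its change was -0.17 (edgeR, adjusted p = 0.719), and with the replicate block it was not called either (edgeR, adjusted p = 0.132). Hnrnpdl had a log2 change of -0.65 with groups that did not overlap (edgeR, adjusted p = 0.337). Hnrnpa1 and Hnrnpa3 were listed at only 0.935 and 0.754 RPKM. Both have near-identical copies in the genome, so their counts are uncertain.

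No SR protein gene was called by edgeR or DESeq2. Srsf9, Srsf2 and Srsf5 had the highest levels of the family at 111, 86.4 and 21.2 RPKM. Srsf9 stood at 191, 182, 238 and 258 CPM and at 259, 257, 316 and 213 CPM (edgeR, adjusted p = 0.484). Srsf2, which binds exonic enhancers and also acts in transcription elongation, stood at 343 ± 30.6 and 326 ± 68.5 CPM (SD, n = 4; edgeR, adjusted p = 0.888). Srsf5 stood at 114 ± 18.9 and 107 ± 18.6 CPM (SD, n = 4; edgeR, adjusted p = 0.901). Srsf1 and Srsf4 had the highest log2 changes, 0.55 (SE 0.31) and 0.48 (SE 0.22), and Srsf11, a U1- and U2-contacting SR protein, the lowest, -0.48 (SE 0.16; edgeR, adjusted p = 0.482, 0.371 and 0.201). Without plasma-negative replicate 3 the change of Srsf1 was 0.31. In all 10 Srsf genes the groups overlapped.

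Exon length went along with the direction of change. Merged exon lengths (all annotated exons of a gene, GENCODE M21) ran from 1653 bases in Srsf9 to 22199 in Hnrnpr, with a median of 5838 against 3975.5 over all tested genes. Of the 14 members with 8000 bases or more, 6 were called lower, 11 had a log2 change below 0 and the median was -0.69. All 2052 tested genes of that length had a median of -0.27, and 2.34% were called lower. Restricted to the 1084 coding genes of that length above 32 CPM, the median was -0.28 and 4.06% were called lower. In the bin from 4000 to under 8000 bases the 35 members had a median of 0.08, with 1 called lower (Rbm26), and the 4543 tested genes had a median of -0.01. The 17 members from 2000 to under 4000 bases had a median of 0.06, against 0.10 for all tested genes, and none of these or of the 2 shorter members was called. Across the 68 members log2 change and log2 exon length had a Pearson correlation of -0.51 and a Spearman correlation of -0.49. Across 5040 coding genes above 32 CPM these were -0.49 and -0.48, and across all 13276 tested genes with a length -0.03 and -0.13. Genes share libraries, so these are descriptions.

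The relation with length was not alike in all families. In the 30 Rbm genes the Spearman correlation was -0.66 and in the 20 Hnrnp genes 0.01, with 10 Srsf genes at -0.18. The difference between families was not tested. Long Hnrnp genes lay on both sides. Hnrnpr, at 22199 bases, was lower, Hnrnpu, at 11599 bases, had a log2 change of 0.19, and Hnrnpll, at 11677 bases, had one of 1.11. Taking the longest annotated transcript in place of merged exons gave a Spearman correlation of -0.31 over the 68 members.

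**Figure D3:**
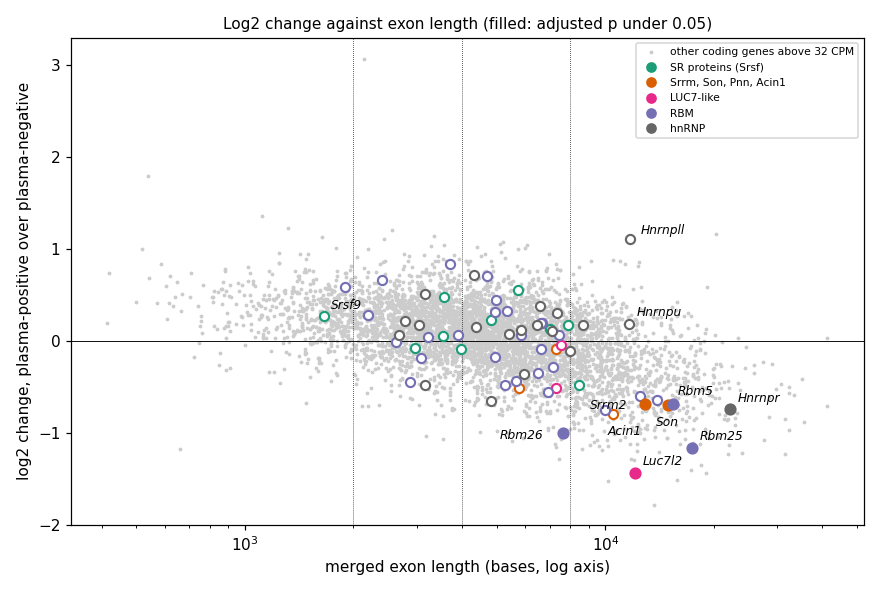
Log2 change (y axis) against merged exon length in bases (log x axis) for the splicing factors, coloured by family, and for other coding genes above 32 CPM (grey). Filled points are called members, and dotted lines mark 2000, 4000 and 8000 bases; 6 of the 7 filled points lie right of the last line, among grey points that also slope downward.

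With a correction of each library for exon length and GC content, Luc7l2 was the only member called. Its log2 change was -1.11 (edgeR with the correction, adjusted p = 0.00751), against a background of 0.648% of genes called, 0.166% lower and 0.482% higher. With limma on log2(RPKM + 1) it was again the only called member (limma, adjusted p = 0.0372; 0.0829% of genes called lower and 0.113% higher), and with a pseudocount of 0.1 it was not called (limma, adjusted p = 0.0551). Rbm26 then had a log2 change of -0.86 (edgeR with the correction, adjusted p = 0.104). Rbm5 came to -0.26 (edgeR with the correction, adjusted p = 0.524), and Son, Srrm2 and Hnrnpr were not called either. All 7 stayed below 0. The median of the 14 longest members was -0.30, while that of all tested genes of 8000 bases or more was 0.02. Hnrnpu and Hnrnpll moved upward to 0.51 and 1.44 (edgeR with the correction, adjusted p = 0.101 and 0.0999). The families kept the order of their medians, at -0.38 for the coactivators, -0.36 for the LUC7-like genes, -0.08 for the Rbm genes, 0.19 for the Srsf genes and 0.20 for the Hnrnp genes.

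**Figure D4:**
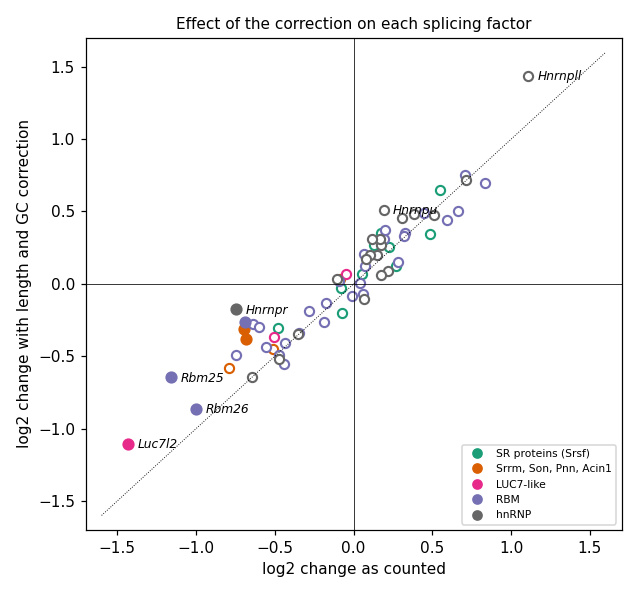
Log2 change with the length and GC correction (y axis) against the log2 change as counted (x axis) for each of the 68 members, coloured by family, with filled points for the 7 called as counted. The dotted line marks equal values; Hnrnpr moves from -0.74 to -0.17, while Luc7l2 moves from -1.43 to -1.11.

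Much of the exon length of some long members belongs to transcripts annotated with a retained intron, a class of RNA that often stays in the nucleus. In Rbm25, 69.5% of the merged exon length is covered by such transcripts alone, in Rbm5 74.0%, in Rbm6 66.3% and in Hnrnpll 72.6%. In Luc7l2, Son and Hnrnpr the shares were 8.74%, 6.86% and 2.27%, and in Rbm26 it was 0. The median was 17.6% in the members and 6.87% in tested coding genes. Across the members this share had a Pearson correlation of -0.08 and a Spearman correlation of -0.13 with the log2 change. The gene counts do not separate spliced from intron-containing transcripts, so their part in the changes was not tested.

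Other genes of the splicing pathway were counted from 8 lists, of which 127 of 128 genes were tested. Of these, 5 were called lower and none higher by edgeR, where 0.565% of all tested genes were called lower and 0.844% higher. In 16 the plasma-positive libraries lay wholly below and in 1 wholly above, where 4.59% and 5.68% of all tested genes did. Core snRNP proteins (13 genes) had a median log2 change of 0.15, branch point and 3′ splice site factors (17 genes) 0.07 and PRP and U5 factors (26 genes) -0.06, with none called. Other proteins rich in arginine-serine repeats (22 genes) had a median of -0.63, with 19 below 0 and with Pnisr and Ppig called. Pnisr, a speckle protein, stood at 141, 107, 113 and 71.7 CPM and at 23.5, 38.5, 39.5 and 49.5 CPM (log2 change -1.52, SE 0.26; edgeR, adjusted p = 0.0163). Ppig, a cyclophilin with an arginine-serine tail, had a log2 change of -0.88 (edgeR, adjusted p = 0.0313). Among 24 other RNA-binding regulators (median -0.11), those called included the helicase Ddx17, with a log2 change of -1.02 (edgeR, adjusted p = 0.0275). Kinases of SR proteins (9 genes, median -0.24) and the exon junction complex (6 genes, median 0.06) held no call. The nonsense-mediated decay list (10 genes, median -0.49) held 1, the kinase Smg1, at -1.22 (edgeR, adjusted p = 0.0248). With 1 library left out, Pnisr was called in 4 of 8 fits, Smg1 in 3, Ddx17 in 2 and Ppig in 0. With the length and GC correction Ppig, Ddx17 and Smg1 were not called (log2 changes -0.64, -0.91 and -0.67; edgeR, adjusted p = 0.145, 0.0737 and 0.265). Pnisr was still called with it, just under the threshold (log2 change -1.28; edgeR with the correction, adjusted p = 0.04996). Median exon length was 2618 bases in the snRNP list and 7533.5 in the arginine-serine list, and with the length and GC correction their medians were 0.08 and -0.38. The corrected medians were -0.01 for the kinases, -0.09 for the exon junction complex, 0.14 for the other RNA-binding regulators and -0.54 for the decay list.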

How the data were processed

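RNA was sequenced from 4 plasma-negative and 4 plasma-positive microglia libraries, grouped and numbered by their titles. The deposited counts are whole reads per gene, limited per the file headers to top hits, with no further scaling by the authors. The deposited RPKM values were scaled by the authors to exon length and to a larger library total. Their counts divided by RPKM and by GENCODE M21 exon length were constant to within 1% for at least 99.39% of genes with at least 50 counts in each library. Trim Galore, STAR, HTSeq and mm10 are named in the submitters' processing notes. Versions, strand setting and treatment of multi-mapping reads are not given in the sources used here. Of the genes, 35546 (99.9%) were in GENCODE M21.

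Counts were fitted with edgeR 4.0.16 in R 4.3.3 (TMM factors, default filter by group, quasi-likelihood test of group, no covariate). Each standard error was obtained from the log2 change and the F statistic. All 68 members passed the filter. Alternatives were other scalings and filters, DESeq2 1.42.0, limma 3.58.1 on log2(RPKM + 1) and log2(RPKM + 0.1), the replicate number as a block, removal of genes with overlapping exons, leaving out each library, and offsets from a loess curve on exon length and GC content, drawn for each library (span 0.3, genes of at least 4 CPM). The fits were tested on simulated data. Members, lists and tests were chosen with earlier results of these data known. Named genes are the called members, in each family the 4 smallest p, 3 highest RPKM and 2 highest log2 changes, up to 3 called genes per pathway list, and Malat1 and Neat1. The counts of amplified reads carry no molecular identifiers. A gene that the rule names is not reported here.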

Additional observations from a re-analysis of the deposited data

Results flagged for a closer look

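Among 86 groups of 4 libraries (named genes, family sums and the counted share), 6 held a library far from the other 3, where chance gives about 5% of groups. Rbm25 was at 258 CPM in plasma-negative replicate 3, against 189 CPM in the nearest library. Hnrnpll was at 49.8 CPM in plasma-positive replicate 1, against 30.3 CPM, and Rbm42 at 157 CPM in the same library, against 182 CPM. Rbm3 was at 16.4 CPM in plasma-negative replicate 2, against 7.22 CPM. Ddx17 was at 60.2 CPM in plasma-positive replicate 3, against 43.5 CPM. The share of the RPKM total that the gene counts make up was 74.6% in plasma-negative replicate 4, against 69.3% in the nearest library of its group.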

How the results depend on the processing

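The 7 lower members were called again with relative log expression factors, with no filter on low counts and with a filter of 1 CPM in 4 libraries. With upper-quartile factors 5 were called, without Rbm5 and Hnrnpr, and with library totals 9, Rbm39 and Acin1 added. With limma on log2(RPKM + 1) and log2(RPKM + 0.1), 1 and 0 members were called lower, and with the length and GC correction 1. Leaving out genes with overlapping exons keeps 34 members, of which 2 were called, Rbm39 and Rbm5, since 6 of the 7 have such an overlap. Without 1 library, 2 to 5 members were called lower and 0 higher, and DESeq2 called 2 higher. Over all genes, 112 were called higher and 75 lower, against 64 and 163 with library totals, 332 and 362 with DESeq2, 15 and 11 with log2(RPKM + 1), 12 and 4 with log2(RPKM + 0.1), 64 and 22 with the length and GC correction, and 41 to 126 and 20 to 77 without 1 library. The cause was not tested. The median of the members was -0.0599 with library totals, 0.12 with log2(RPKM + 1) and 0.17 with log2(RPKM + 0.1), where the median of all genes moved by -0.11, 0.11 and 0.16, and ran from -0.0261 to 0.0376 without 1 library. The Spearman correlation with length was -0.31 with the longest transcript.

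Deviations of same-numbered libraries from their group means correlated at 0.0109 to 0.0315. Centring on the group means ties the average between different numbers, -0.00556, to these values. They therefore cannot tell whether equally numbered libraries share an animal. With the replicate block 52 genes were called higher, 22 lower and 3 members lower (Luc7l2, Rbm25 and Rbm26), and with the block and the length and GC correction 15, 4 and 1.

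Signs turned only in genes that were not called. Luc7l had log2 changes of 0.0366 and 0.0396 with log2(RPKM + 1) and log2(RPKM + 0.1), 0.0654 with the length and GC correction, 0.0308 once blocked, and -0.36 to 0.18 without 1 library. With log2(RPKM + 1) and log2(RPKM + 0.1), Srsf2 was at 0.0312 and 0.0313, Srsf5 at 0.0426 and 0.0443 and Srrm1 at 0.0303 and 0.0314. Srrm1 was at 0.0362 with the length and GC correction and at 0.0228 once blocked. Without 1 library Rbm7 ran from -0.32 to 0.0169, Srsf2 from -0.17 to 0.0369, Srsf5 from -0.20 to 0.0179, Srrm1 from -0.27 to 0.0141 and Neat1 from -0.44 to 0.60. Counting depth limits the low members most in plasma-negative replicate 4, the smallest library.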

Other observations

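Malat1, a non-coding RNA of nuclear speckles, stood at 6291, 7085, 7399 and 6099 CPM in plasma-negative and 3010, 3210, 3259 and 3528 CPM in plasma-positive libraries (log2 change -1.05; edgeR, adjusted p = 6.23e-05). Neat1, the RNA of paraspeckles, stood at 12.4 ± 7.92 and 14.0 ± 9.85 CPM (SD, n = 4; edgeR, adjusted p = 0.946). With the length and GC correction Malat1 stood at -0.92 (edgeR with the correction, adjusted p = 0.000394), and on log2(RPKM + 1) it was not called (limma, adjusted p = 0.0657).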
